A study of Mus musculus with 12 samples.

Results

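The annexins are a family of proteins that bind acidic phospholipids of cell membranes in the presence of calcium. They share a conserved core that docks on the membrane and differ in a short tail that carries the binding sites for partners such as the small S100 proteins. After a membrane is torn, calcium that flows into the cell draws annexins to the edge of the wound, where they take part in resealing, and members outside the cell are known for binding exposed phosphatidylserine, for plasminogen activation and for the resolution of inflammation. The 9 members described here, Anxa1, Anxa2, Anxa3, Anxa4, Anxa5, Anxa6, Anxa7, Anxa9 and Anxa11, were chosen by their gene symbols out of 12 annexin genes in the annotation and 54232 genes in the deposited count table. Anxa13 was left out of the choice. All 9 passed the filter on low counts, and each symbol belonged to 1 Ensembl identifier.

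The data came from whole livers of male C57BL6/J mice labelled as 8-week in age, with 1 RNA library per mouse. The labels do not say at which point of the study the mice had this age. The 7 alcohol-fed (AF) mice received ethanol with a high-fat liquid diet through an intragastric tube for 8 weeks, up to 27 g/kg/day, and a weekly binge of 5 g/kg, a model of alcohol-associated steatohepatitis (ASH). The 5 pair-fed (PF) mice received the isocaloric high-fat liquid diet without ethanol for the same time. The AF regimen also included a solid diet rich in cholesterol and saturated fat, and the solid diet of the PF mice is not stated in the methods. Before the intragastric feeding, the methods name an acclimation period on this solid diet or on regular chow. The mice were killed the day after the final binge. The libraries held 24129900 to 30578639 reads on genes, and levels are given as CPM, the counts of a gene over those of its library on a common base, after TMM scaling, which sets libraries to a common level by the bulk of their genes. The TMM factors were 0.832 to 0.901 in PF and 0.880 to 1.36 in AF livers, and the 3 AF livers with the lowest factors were replicates 6, 7 and 2 at 0.880, 0.960 and 1.04. AF replicate 6 also lay nearest to the PF livers on the first principal component. Genes of hepatocytes, the main cell of the liver, summed to 46426 CPM or more in every library.

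Of the 9 annexins, 5 were higher in AF than in PF livers with edgeR's quasi-likelihood test at an adjusted p under 0.05, 0 were lower and 4 did not pass. Anxa2 rose most, by 2.62 on the log2 scale, followed by Anxa9 with 1.67, Anxa3 with 1.40, Anxa5 with 1.30 and Anxa6 with 0.26. Over all 14168 genes tested, 39.8% were called in either direction and 22.0% were called higher in AF livers. The median log2 fold change of the 9 members was 0.41, and that of all genes tested was 0.04. In each of the 5 called members every AF liver lay above every PF liver, a separation that 8.20% of all genes tested showed. In bulk tissue, fewer cells of a type and less RNA per cell cannot be told apart, and this holds for every level below.

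**Figure D1:**
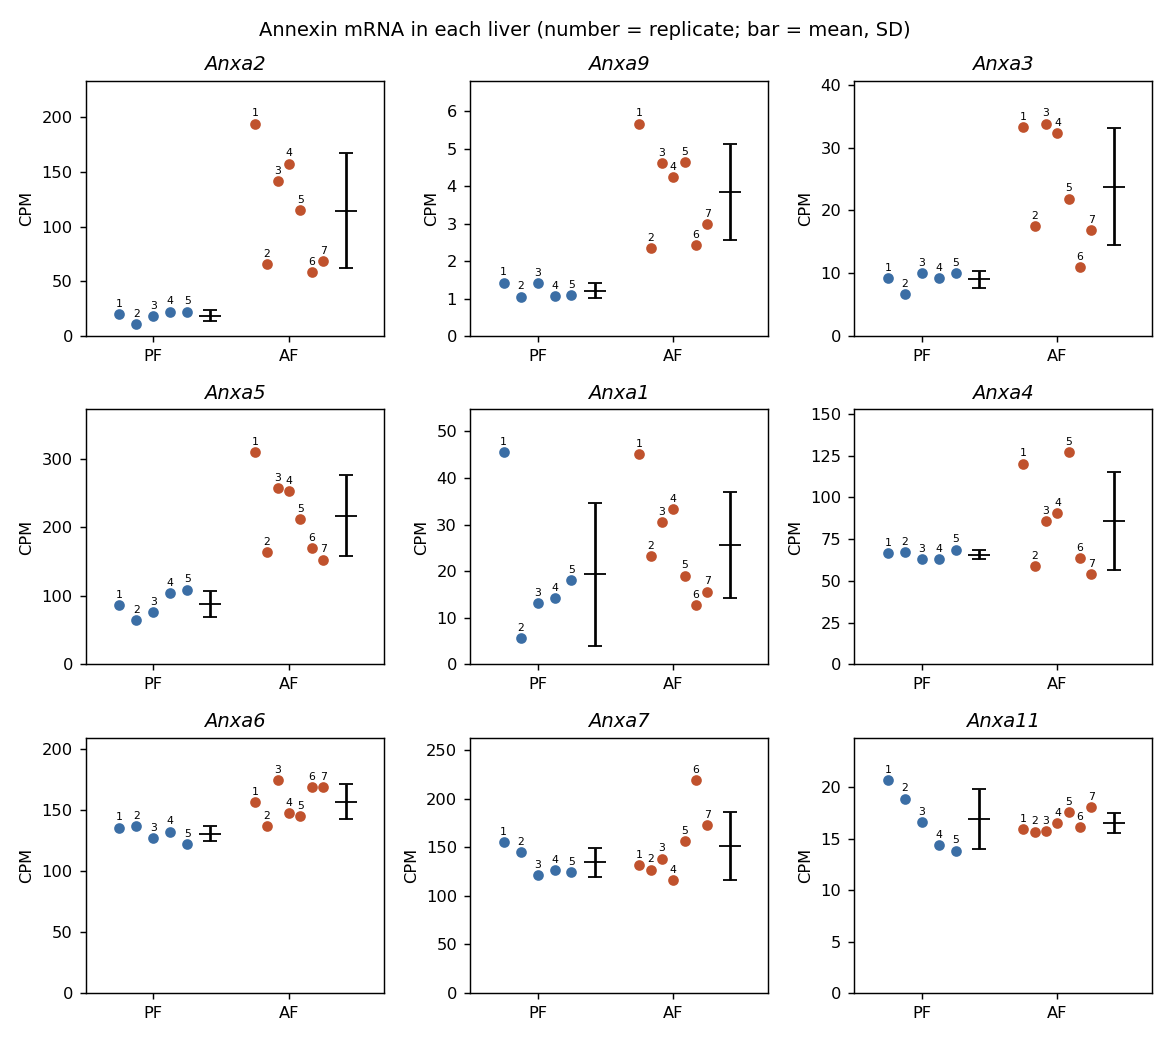
CPM of each annexin in the 5 PF (blue) and 7 AF (red) livers, with 1 point per liver numbered by replicate, and the mean and SD as a black bar beside the points. The AF livers lie above all PF livers for Anxa2, Anxa9, Anxa3, Anxa5 and, narrowly, Anxa6, while the groups overlap for Anxa1, Anxa4, Anxa7 and Anxa11.

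The sequence just before the RefSeq start is shown for the called members Anxa2, Anxa5 and Anxa9. It is also shown for Anxa11, a member whose level did not pass the test. Each stretch holds the 250 bases before the RefSeq start on assembly GRCm38.p6, written 5′ to 3′ on the strand of the gene. The search read both strands for AP-1 (TGANTCA), the GC box (GGGCGG), the CCAAT box (CCAAT), the TATA box (TATAAA) and the core of the NRF2 element (TGACNNNGC), and capitals mark the matches. Entries were found for 7 of the 9 members. The Anxa2 promoter lies at chr9:69453433-69453682 on the plus strand, that of Anxa5 at chr3:36475888-36476137 on the minus strand, that of Anxa9 at chr3:95307193-95307442 on the minus strand and that of Anxa11 at chr14:25841905-25842154 on the plus strand.
Anxa2: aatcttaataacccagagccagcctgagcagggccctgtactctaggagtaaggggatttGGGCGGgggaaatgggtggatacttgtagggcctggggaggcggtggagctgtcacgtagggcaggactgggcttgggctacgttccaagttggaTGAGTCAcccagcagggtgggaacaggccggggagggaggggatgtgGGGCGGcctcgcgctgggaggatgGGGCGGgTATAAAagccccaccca
Anxa5: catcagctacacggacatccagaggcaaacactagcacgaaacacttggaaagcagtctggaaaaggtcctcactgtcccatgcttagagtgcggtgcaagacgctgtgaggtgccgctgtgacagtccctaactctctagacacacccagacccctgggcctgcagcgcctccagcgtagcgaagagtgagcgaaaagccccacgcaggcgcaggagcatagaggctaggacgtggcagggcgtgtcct
Anxa9: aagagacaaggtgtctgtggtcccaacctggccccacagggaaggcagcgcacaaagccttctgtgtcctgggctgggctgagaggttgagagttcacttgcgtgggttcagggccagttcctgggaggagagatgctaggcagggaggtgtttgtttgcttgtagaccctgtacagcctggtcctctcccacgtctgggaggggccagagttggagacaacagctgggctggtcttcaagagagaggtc
Anxa11: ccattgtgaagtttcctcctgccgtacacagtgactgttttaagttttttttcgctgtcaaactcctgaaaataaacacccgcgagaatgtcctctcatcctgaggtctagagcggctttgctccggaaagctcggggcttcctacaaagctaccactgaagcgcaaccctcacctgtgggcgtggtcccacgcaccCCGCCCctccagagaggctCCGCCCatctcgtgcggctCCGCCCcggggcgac

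The Anxa2 stretch held 1 AP-1 match 95 bases before the RefSeq start, 3 GC boxes and 1 TATA box 17 bases before it. The RefSeq start of Anxa2 lies 63 bases inside the gene as GENCODE annotates it. The last 63 bases of its stretch, with the TATA box, thus lie within the annotated gene. For Anxa5 the RefSeq start lies 7 bases inside. Of 32851 mouse promoters of the same length, 6.75% held the AP-1 letters, 32.7% a GC box and 12.4% a TATA box. The stretches of Anxa5 and Anxa9 held 0 matches of the 5 motifs. Anxa11 held 3 GC boxes close to the start. Among the members not printed, Anxa1 held 1 TATA box and Anxa7 held 1 GC box. Anxa4 held 1 match of the NRF2 core, whose letters stood in 10.2% of all promoters. The RefSeq start of Anxa1 lies 273 bases inside the gene as GENCODE annotates it, so its whole stretch lies within the annotated gene. The CCAAT box, in 33.8% of all promoters, was found in 0 of the 7 members. The 3 called members with an entry thus did not share a searched motif, and a match of letters is a description and not a measured binding site.

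Anxa2 (ENSMUSG00000032231, chr9:69453620-69491795, plus strand) encodes the annexin that joins S100A10 in a complex at the cell surface, where plasminogen and its activator bind. Its level was 19.8, 11.03, 18.0, 22.3 and 22.3 CPM in PF replicates 1 to 5. In AF replicates 1 to 7 it was 194, 65.8, 142, 158, 115, 58.6 and 68.3 CPM. The lowest AF liver, replicate 6, was above the highest PF liver by more than the whole range of PF livers. The means were 18.7 CPM among PF mice (SD 4.65, n = 5) and 115 CPM among AF mice (SD 52.7, n = 7), which makes a ratio of 6.13. The log2 fold change was 2.62 ± 0.33 (SE) with an edgeR adjusted p of 1.22e-04, and the exact permutation test over every arrangement of the 12 libraries gave 0.00126, the smallest p it can give with 5 against 7 livers. Over all alternative settings the log2 fold change of Anxa2 stayed between 2.44 and 3.05.

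Anxa5 (ENSMUSG00000027712, chr3:36448923-36475894, minus strand) encodes the annexin used as a probe for phosphatidylserine on dying cells. In PF replicates 1 to 5 it was measured at 86.2, 65.3, 76.2, 104 and 109 CPM. The 7 AF livers gave 310, 164, 258, 253, 212, 170 and 153 CPM in replicate order. The groups did not overlap, with AF replicate 7 the lowest and AF replicate 1 the highest of the AF livers. The level rose from a mean of 88.2 CPM in the PF group (SD 18.5, n = 5) to 217 CPM (SD 58.9, n = 7). The fitted log2 fold change was 1.30 ± 0.20 (SE) with an edgeR adjusted p of 4.35e-04. The exact permutation p was 0.00126, and the log2 fold change ranged from 1.20 to 1.71 over the alternatives.

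Anxa3 (ENSMUSG00000029484, chr5:96793339-96845966, plus strand), a member that was early on described as an inhibitor of phospholipase A2, was low in PF livers at 9.25, 6.68, 9.96, 9.24 and 9.999 CPM. In AF livers it was 33.3, 17.5, 33.8, 32.3, 21.9, 11.02 and 16.8 CPM in replicate order. AF replicate 6 stood just above the PF livers, and AF replicates 1, 3 and 4 stood together at the top. The level rose from a mean of 9.03 CPM in the PF group (SD 1.36, n = 5) to 23.8 CPM (SD 9.29, n = 7). The log2 fold change was 1.40 ± 0.27 (SE) with an edgeR adjusted p of 0.00162 and a range of 1.30 to 1.82 over the alternatives.

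Anxa9 (ENSMUSG00000015702, chr3:95296096-95307176, minus strand), an atypical member whose core binds calcium poorly, was the least abundant. The 5 PF livers held 1.43, 1.05, 1.42, 1.06 and 1.09 CPM in replicate order. The 7 AF livers held 5.68, 2.35, 4.62, 4.25, 4.65, 2.42 and 2.99 CPM. The means were 1.21 ± 0.195 CPM (SD, n = 5) and 3.85 ± 1.28 CPM (SD, n = 7), and the groups did not overlap. Anxa9 had a log2 fold change of 1.67 ± 0.25 (SE) with an edgeR adjusted p of 3.97e-04 and a range of 1.56 to 2.09. These values rest on 137 reads over the PF libraries and 881 reads over the AF libraries. Exons of Anxa9 overlap those of Mindy1 on the opposite strand over 71 bases, and Mindy1 held 28999 reads. The level of Anxa9 is thus uncertain where the counting did not use strand. They also overlap those of 6330562C20Rik on the same strand over 94 bases, which strand does not separate, and this gene held 156 reads.

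Anxa6 (ENSMUSG00000018340, chr11:54979108-55033445, minus strand) carries a duplicated annexin core and acts on late endosomes and their cholesterol. PF livers held 135, 136.84, 127, 132 and 122 CPM, and AF livers held 156, 136.88, 174, 147, 145, 169 and 169 CPM in replicate order. The groups were separated by AF replicate 2 and PF replicate 2, whose levels were nearly the same. The level went from a mean of 131 CPM in the PF group (SD 6.30, n = 5) to 157 CPM (SD 14.3, n = 7), and the log2 fold change of 0.26 ± 0.085 (SE) passed with an edgeR adjusted p of 0.0256. This call was lost in 6 of 23 alternatives. With an offset for GC content and length the log2 fold change of Anxa6 was 0.12 with an adjusted p of 0.191, with the replicate number as a block it was 0.22 with an adjusted p of 0.0992, and without PF replicate 3, 4 or 5 the adjusted p was 0.0637, 0.0540 or 0.0745. With every gene of at least 1 count in any library tested, it was 0.0688.

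Anxa1 (ENSMUSG00000024659, chr19:20373428-20390944, minus strand) encodes a glucocorticoid-regulated protein that acts on formyl peptide receptors and limits neutrophil entry. Its PF levels were 45.6, 5.67, 13.1, 14.3 and 18.1 CPM in replicate order. The AF levels were 45.2, 23.3, 30.5, 33.3, 19.1, 12.7 and 15.6 CPM. PF replicate 1 matched the highest AF liver, and the other PF livers lay in or below the lower part of the AF range. A log2 fold change of 0.41 ± 0.43 (SE) did not pass, with an edgeR adjusted p of 0.467 and a 95% interval of -0.52 to 1.35. Without PF replicate 1 it was 1.00 with an adjusted p of 0.0502, without PF replicate 2 it was 0.17 and without AF replicate 1 it was 0.22, so that single livers moved the value. Anxa1 passed with the replicate number as a block, at 0.89 with an adjusted p of 0.0410, and with limma and sample quality weights, at 0.84 with an adjusted p of 0.0408. PF replicate 1 was also the liver with the highest summed neutrophil markers, at 1002 CPM against 60.6 to 231 CPM in the other PF livers and 48.5 to 206 CPM in AF livers, and the part of neutrophils in the Anxa1 level was not tested. Of the 8 neutrophil markers, 0 passed the test in either direction, beside 39.8% of all genes tested.

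Anxa4 (ENSMUSG00000029994, chr6:86736840-86793584, minus strand), known from secretory epithelia, was nearly level among PF livers at 66.8, 67.2, 63.0, 62.9 and 68.8 CPM. AF livers held 120, 59.1, 85.7, 90.4, 127, 63.8 and 54.0 CPM. Of the 7 AF livers, 4 lay above every PF liver and 2 lay below every PF liver. The SD was 2.65 CPM in PF and 29.2 CPM in AF livers, around means of 65.7 and 85.8 CPM. Its log2 fold change of 0.38 ± 0.20 (SE) did not pass with an edgeR adjusted p of 0.146, and its 95% interval ran from -0.05 to 0.82. With the replicate number as a block, a fit without AF replicates 6 and 7, Anxa4 passed at 0.51 with an adjusted p of 0.0328.

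Anxa7 (ENSMUSG00000021814, chr14:20455260-20480133, minus strand), known for its role in membrane fusion, was measured at 121 to 155 CPM in PF livers with a median of 126 CPM. In AF livers it was 132, 127, 138, 117, 156, 219 and 173 CPM in replicate order. AF replicates 5, 6 and 7 were above every PF liver, replicate 5 only narrowly. Its log2 fold change of 0.17 ± 0.15 (SE) did not pass with an edgeR adjusted p of 0.364, and its 95% interval was -0.15 to 0.50. Without AF replicate 6 it was 0.064 with an adjusted p of 0.670.

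Anxa11 (ENSMUSG00000021866, chr14:25842156-25886804, plus strand), whose long tail binds the calcium sensor encoded by Pdcd6, was 20.7, 18.9, 16.6, 14.4 and 13.8 CPM in PF livers. In AF livers it was 15.9, 15.7, 15.7, 16.5, 17.6, 16.1 and 18.1 CPM, inside the range of the PF livers. The log2 fold change was -0.03 ± 0.10 (SE) with an edgeR adjusted p of 0.828 and a 95% interval of -0.26 to 0.19. Both the sign and the call changed between settings, since Anxa11 was called lower with an offset for GC content and length, at -0.26 with an adjusted p of 0.0435, and higher on library totals without TMM, at 0.33 with an adjusted p of 0.0489.

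With RLE or upper-quartile factors the same 5 members were called as with TMM, while the calls changed on library totals. On library totals without TMM, the median log2 fold change of all genes was 0.40 in place of 0.04, a shift of 0.36, and 6458 genes were called higher and 938 lower in AF livers in place of 3116 and 2519. With that scaling 8 of the 9 annexins were called higher, with Anxa4, Anxa7 and Anxa11 joining at log2 fold changes of 0.80, 0.51 and 0.33. Anxa2, Anxa3, Anxa5 and Anxa9 were called higher in each of the 23 alternatives run.

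**Figure D2:**
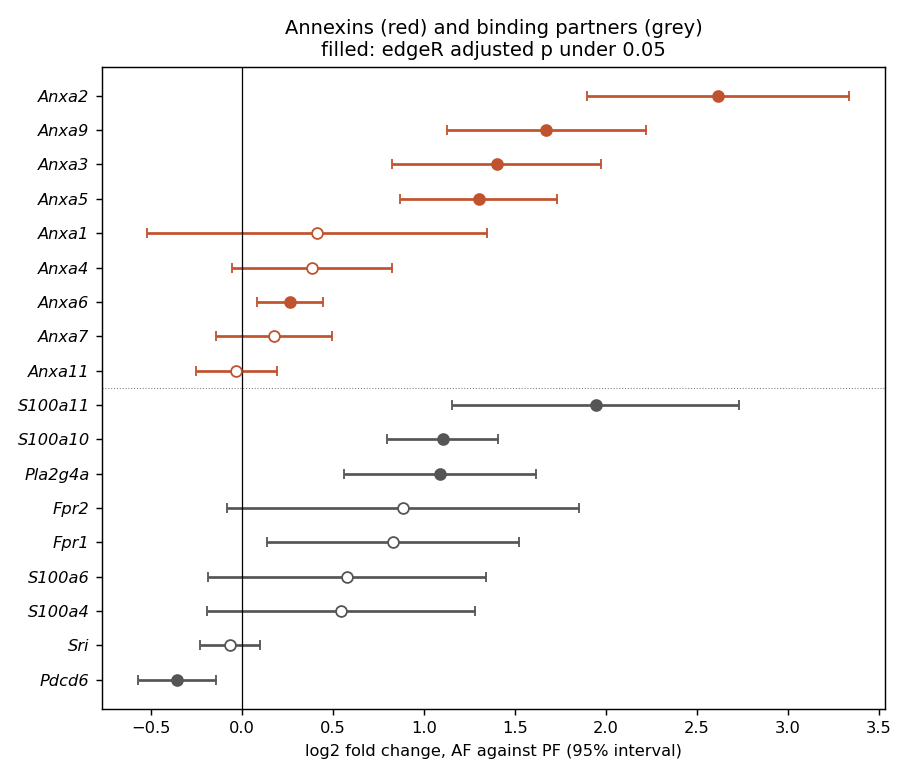
Log2 fold change of AF against PF livers with 95% intervals for the 9 annexins (red) and 9 genes of binding partners, receptors and a target (grey), filled where the edgeR adjusted p is under 0.05. Among the annexins, Anxa2 stands farthest to the right at 2.62 and Anxa11 lies at -0.03.

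The order of the annexins within a liver was read from CPM per kb of exonic length, which merges all annotated exons of a gene. The length of the transcripts present was not measured, so the order and the shares of the sum depend on the annotated lengths. In plain CPM the PF means were 135 for Anxa7, 131 for Anxa6 and 88.2 for Anxa5. Per kb, the order in PF livers from high to low was Anxa5, Anxa6, Anxa7, Anxa4, Anxa1, Anxa2, Anxa11, Anxa3 and Anxa9. Anxa5 had 49.6 ± 10.4 and Anxa6 44.6 ± 2.15 CPM per kb (SD, n = 5), and their ranges overlapped. Those of Anxa4 with Anxa1, Anxa1 with Anxa2 and Anxa2 with Anxa11 overlapped as well. The other neighbours in the PF order did not overlap, and Anxa9 closed the order at 0.583 ± 0.0941 CPM per kb (SD, n = 5).

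In AF livers the order was Anxa5, Anxa6, Anxa2, Anxa7, Anxa4, Anxa1, Anxa3, Anxa11 and Anxa9. Anxa5 stood apart at 122 ± 33.1 CPM per kb, above Anxa6 at 53.5 ± 4.88 CPM per kb in 7 of 7 livers (SD, n = 7). Anxa2 moved from the sixth place with 5.01 ± 1.25 CPM per kb (SD, n = 5) to the third with 30.7 ± 14.1 CPM per kb (SD, n = 7), and it lay above Anxa7 in 4 of the 7 AF livers. The ranges of neighbours did not overlap for Anxa5 with Anxa6 and for Anxa11 with Anxa9, and they overlapped for the rest. The summed level of the 9 members was 150 ± 13.5 CPM per kb (SD, n = 5) in PF and 271 ± 55.4 CPM per kb (SD, n = 7) in AF livers. Of this sum, Anxa5 made up 33.0% on average in PF and 44.5% in AF livers, Anxa6 went from 30.0% to 20.4%, and Anxa2 from 3.32% to 10.8%.

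**Figure D3:**
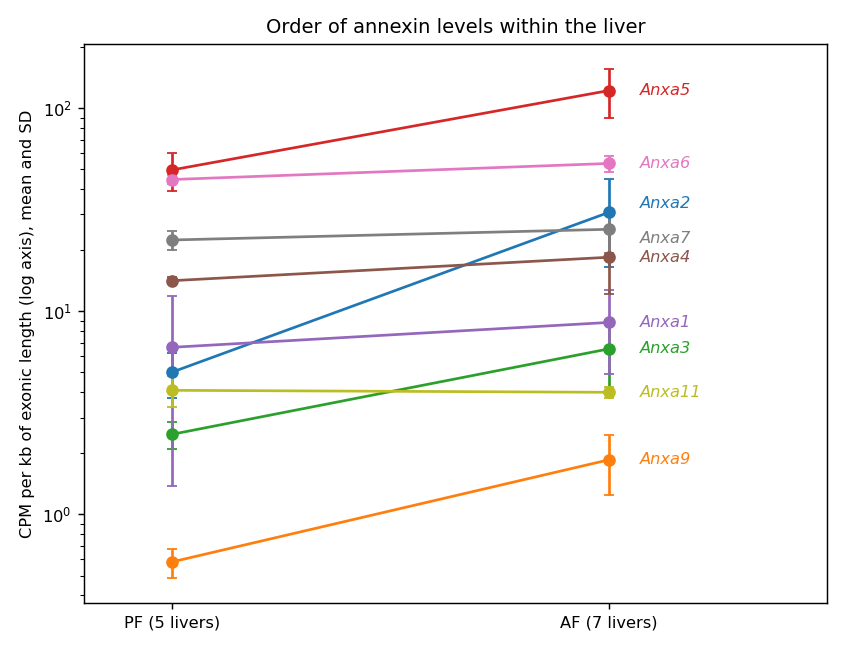
Mean level of each annexin in PF and AF livers in CPM per kb of exonic length on a log axis, with SD over 5 and 7 livers. The line of Anxa2 crosses those of Anxa1, Anxa4 and Anxa7 between the groups, and Anxa5 rises away from Anxa6.

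The AF livers differed widely among themselves in these genes. AF replicates 1, 3, 4 and 5 were the 4 highest AF livers for each of Anxa2, Anxa3, Anxa4, Anxa5 and Anxa9. The same 4 livers had the 4 highest TMM factors, at 1.36, 1.20, 1.23 and 1.15, and the 4 highest sums of bile duct markers, of which 4 of 5 tested were higher in AF livers. Among these, Epcam, Krt19 and Krt7 rose by 2.76, 2.62 and 2.36 on the log2 scale. Krt19 and Krt7 rest on 25 and 38 reads over the PF libraries. AF replicate 1 was the highest liver for Epcam, Krt19 and Krt7, and Epcam in AF replicates 2, 6 and 7 lay within the PF range. The sum of bile duct markers spanned 50.01 to 244 CPM among PF and 70.7 to 1096 CPM among AF mice, with Spp1 in it, and without Spp1 it spanned 3.61 to 5.75 and 5.66 to 48.0 CPM. AF replicates 1, 3, 4 and 5 also had the 4 highest sums of recruited macrophage markers, spanning 73.5 to 298 CPM among PF and 145 to 1598 CPM among AF mice, with 4 of 8 markers higher, but without Spp1 AF replicate 2 took the place of replicate 5 among the 4 highest. The stellate cell and fibrosis markers, of which 8 of 9 were higher, summed to 44.6 to 105 CPM in PF and 95.2 to 551 CPM in AF livers. The Kupffer cell markers, of which 7 of 8 were higher, summed to 742 to 1065 CPM in PF and 1128 to 3231 CPM in AF livers, without overlap. Their lowest AF sum was in replicate 1, the liver with the most Anxa2, Anxa5 and Anxa9. The share of all genes tested that was called higher was 22.0%. The part of these cells and of the scaling in the annexin levels was not tested.

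Markers of other cells moved less or the other way, where 39.8% of all genes tested were called in either direction and 22.0% higher. Of 8 hepatocyte markers 3 were lower and 0 higher, and their sum spanned 90407 to 132669 CPM among PF and 46426 to 96142 CPM among AF mice. Of 8 sinusoidal endothelium markers 1 was higher, with sums of 181 to 371 CPM in PF and 233 to 384 CPM in AF livers. Of 8 T cell markers 1 was lower, at sums of 6.69 to 15.1 CPM in PF and 3.80 to 7.66 CPM in AF livers. Of 6 B cell markers 1 was higher and 1 lower, with sums of 18.7 to 140 CPM in PF and 12.4 to 31.3 CPM in AF livers. Mesothelium markers, 0 of 5 called, summed to 0.0492 to 7.38 CPM in PF and 0.484 to 7.21 CPM in AF livers, and red blood cell markers, 1 of 5 lower, to 130 to 182 CPM in PF and 30.2 to 181 CPM in AF livers. The latter sum was carried by Alas2, at a mean of 124 CPM in PF livers, which was the gene called lower, while the 4 globin genes had log2 fold changes of 0.81 to 1.02 that did not pass. In each of these sums the groups overlapped. On library totals without TMM, 6 of the 8 endothelium markers and the 4 globin genes were called higher, beside 6458 of all 14168 genes.

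Among the 7 AF livers, 3 of the 36 pairs of annexins passed an exact permutation test of Pearson's r on log2(CPM + 0.1), and each of them held Anxa2. The pairs were Anxa2 with Anxa5 at r = 0.970 (exact permutation p = 0.00317), with Anxa9 at r = 0.950 (exact permutation p = 0.00377) and with Anxa3 at r = 0.942 (exact permutation p = 0.00397), each with an adjusted p of 0.0476 over the 36 pairs. Spearman's rho was 0.821 for Anxa5 (exact permutation p = 0.0341), 0.821 for Anxa9 (exact permutation p = 0.0341) and 0.857 for Anxa3 (exact permutation p = 0.0238), and no rho passed after adjustment, the lowest adjusted p being 0.154. Without the 2 livers farthest from the median of Anxa2, r was 0.992, 0.913 and 0.935 for Anxa5, Anxa9 and Anxa3. The points share libraries and scaling factors. The number of pairs past the threshold was 0 with log2(CPM + 1). It was 0 without any one of AF replicates 1, 3, 4, 5, 6 or 7, and 8 without AF replicate 2. With a liver left out, the exact test has fewer orders and a higher smallest p, so the threshold is harder to pass. Anxa7 ran the other way from Anxa1, with r = -0.845 (exact permutation p = 0.0135, adjusted 0.0656), which did not pass.

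**Figure D4:**
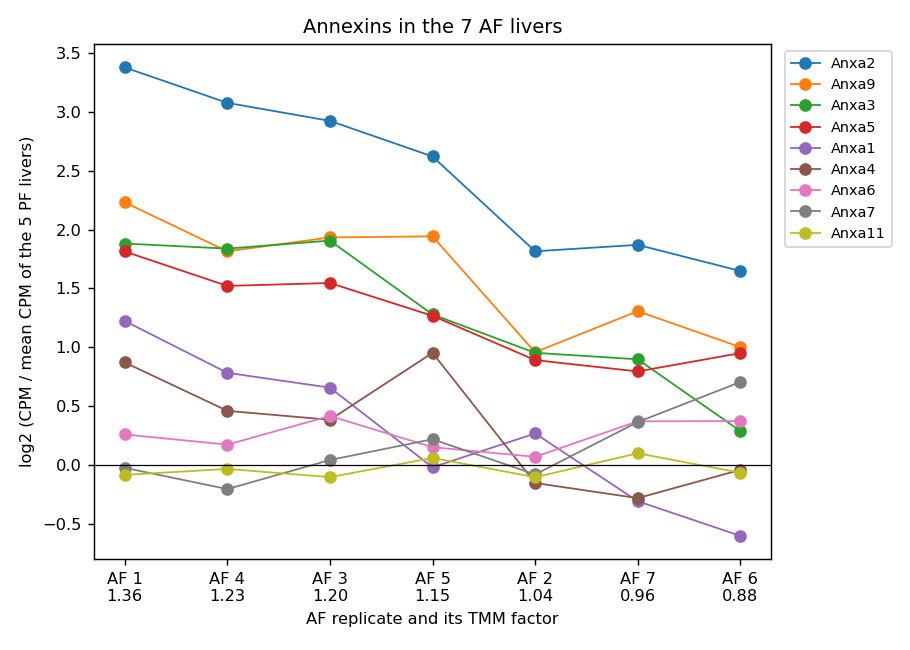
Log2 of CPM in each AF liver over the mean CPM of the 5 PF livers, for the 9 annexins, with the AF livers ordered by their TMM factor, which is printed under each. Anxa2, Anxa9, Anxa3 and Anxa5 are above 0 in each of the 7 livers and highest in replicates 1, 3, 4 and 5, and Anxa7 is highest in replicate 6.

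Anxa5, the member with the highest level per length in AF livers, was also set against all other genes tested. The 5 of 14159 genes outside the family whose log2 CPM followed it most closely over the 7 AF livers were Areg with r = 0.989, Phc1 with 0.984, Cd9 with 0.981, Npdc1 with 0.973 and Rap1gap2 with 0.971. Areg, which encodes the growth factor amphiregulin, ran from 0.457 to 25.7 CPM in AF livers, and Cd9, which encodes a tetraspanin, from 30.7 to 104 CPM. Phc1 lay at 1.58 to 3.37 CPM and did not differ past the threshold between AF and PF livers, with an edgeR adjusted p of 0.794. These r values were picked as the highest among many genes over 7 libraries and are given as a description.

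Of the S100 proteins that bind annexin tails, 7 of 8 were tested, 2 were higher and 2 lower in AF livers, with a median log2 fold change of 0.55. Among all genes tested, 22.0% were called higher and 39.8% in either direction. S100a10, the partner of Anxa2, rose from a mean of 69.8 CPM in the PF group (SD 16.3, n = 5) to 150 CPM (SD 11.6, n = 7), and its log2 fold change was 1.10 ± 0.14 (SE) with an edgeR adjusted p of 1.23e-04. S100a11, a partner of Anxa1, rose from a mean of 11.5 CPM in the PF group (SD 4.96, n = 5) to 44.1 CPM (SD 19.9, n = 7), and its log2 fold change was 1.94 ± 0.37 (SE) with an edgeR adjusted p of 0.00151. Both partners that rose had no overlap between the groups. S100a6, which binds Anxa11, and S100a4, which binds Anxa2, had log2 fold changes of 0.58 and 0.55 with edgeR adjusted p values of 0.210 and 0.217. S100a6 was 0.88 without PF replicate 1 and 0.33 without PF replicate 2, and it passed with sample quality weights (limma adjusted p = 0.0291). S100a4 passed with the GC and length offset, at 0.99 with an adjusted p of 0.0278, and on library totals with an adjusted p of 0.0470. S100a1 fell by 0.71 and S100a13 by 0.37 on the log2 scale, and the call for S100a13 was lost with upper-quartile scaling and on library totals.

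S100a10 and Anxa2, whose proteins pair in the cell, rose by unequal amounts. Per kb of exonic length, S100a10 exceeded Anxa2 in every liver, by 11.6 ± 1.38 times in PF (SD, n = 5) and 5.01 ± 2.58 times in AF livers (SD, n = 7). The ratio spanned 9.70 to 12.9 among PF mice, and among AF mice 2.17 to 8.39, without overlap. The mean log2 ratio was lower in AF livers by a difference of -1.39, with an exact two-sided permutation p of 0.00631. Leaving out any one library kept the difference between -1.54 and -1.21, with a highest exact permutation p of 0.0121. This ratio does not depend on the scaling of the libraries, and it was chosen after the values had been seen. Its size depends on the annotated exonic lengths, which cancel in the difference between the groups. In plain CPM, Anxa2 was above S100a10 in AF replicate 1, at 194 against 137, and in AF replicate 4, at 158 against 133. It compares mRNA levels, and the protein complex was not measured here.

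**Figure D5:**
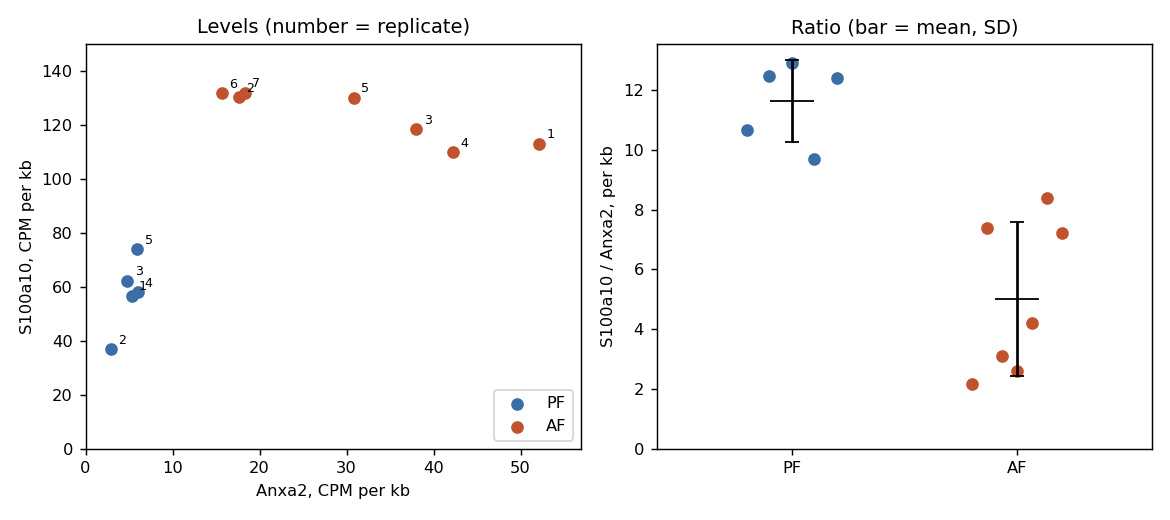
Left, level of S100a10 against Anxa2 in CPM per kb of exonic length, 1 point per liver numbered by replicate. Right, ratio of S100a10 to Anxa2 per kb in each liver with the mean and SD, which spans 9.70 to 12.9 for PF and 2.17 to 8.39 for AF.

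The list of calcium-binding penta-EF-hand proteins, which holds Pdcd6 and Sri, gave 1 gene higher and 2 lower among 4 tested. Its median log2 fold change was -0.21 and became 0.15 on library totals. Among all genes tested, 22.0% were called higher and 39.8% in either direction. Pdcd6 fell by 0.36 on the log2 scale with an edgeR adjusted p of 0.0129, and on library totals its log2 fold change was -0.01. Gca, which encodes grancalcin, fell by 1.30, and Pef1 rose by 0.43. Sri, which encodes sorcin, a partner of Anxa7, had 37.1 CPM among PF mice (SD 0.955, n = 5) and 35.4 CPM among AF mice (SD 3.55, n = 7), and its log2 fold change was -0.07 with an edgeR adjusted p of 0.511.

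Of the formyl peptide receptors, through which the Anxa1 protein acts, and cytosolic phospholipase A2, 3 of 4 genes were tested and 1 was higher, with a median log2 fold change of 0.88. The share called higher among all genes tested was 22.0%. Fpr1 had a mean of 13.7 CPM in PF and 24.4 CPM in AF livers, and the AF livers ran from 9.33 to 46.2 CPM, so that the groups overlapped. Its log2 fold change was 0.83 ± 0.32 (SE) with an edgeR adjusted p of 0.0553, and that of Fpr2 was 0.88 ± 0.45 (SE) with an edgeR adjusted p of 0.131. Fpr1 passed in 6 of the 23 alternatives and Fpr2 in 3, and both passed on library totals, with the GC and length offset and without AF replicate 1, where the adjusted p was 0.0135 for Fpr1 and 0.0473 for Fpr2. Pla2g4a, which encodes the phospholipase that releases arachidonic acid, rose from a mean of 5.33 CPM in the PF group (SD 1.47, n = 5) to 11.3 CPM (SD 3.68, n = 7) with an edgeR adjusted p of 0.00412. Fpr3 had 0 reads in every library.

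The remaining lists cover processes in which annexins take part, and their counts stand beside 22.0% of all genes tested called higher and 39.8% called in either direction. Of 16 tested genes of membrane repair, 8 were higher and 2 lower in AF livers, with a median log2 fold change of 0.40. Syt7 rose by 2.14, Myof, a relative of dysferlin, by 2.01 and Ehd2 by 1.48, while Pdcd6ip and Pdcd6 were lower. Syt7 rests on 89 reads over the PF libraries, and its highest AF liver was replicate 1 at 10.5 CPM. For each of Syt7, Myof and Ehd2, AF replicate 6 lay within the PF range. The fall of Pdcd6ip was lost with upper-quartile scaling, and its log2 fold change was 0.13 on library totals. Of 7 genes of plasminogen activation, the process tied to surface Anxa2, 5 were higher and 2 lower, with a median of 1.26. Plat rose by 3.21, Plau by 2.70 and Plaur, the receptor of the Plau protein, by 2.14, from PF levels of at most 1.31, 3.30 and 1.18 CPM. Plg, made by hepatocytes, and Serpinf2 were the lower genes, and both calls were lost on library totals. Of 13 genes of phosphatidylserine exposure and recognition, the lipid that Anxa5 binds, 5 were higher and 2 lower, with a median of 0.30. Mfge8, a bridge between phosphatidylserine and phagocytes, rose by 2.11 on the log2 scale, the scramblase gene Ano6 rose by 1.32, and Axl, a receptor tyrosine kinase of phagocytes, rose by 1.15. Tmem30a, a subunit of the flippases that return the lipid to the inner leaflet, fell by 0.94, from a mean of 243 CPM in the PF group (SD 23.4, n = 5) to 126 CPM (SD 18.1, n = 7). On library totals the counts of higher and lower genes were 13 and 0 for membrane repair, 5 and 0 for plasminogen activation and 8 and 2 for phosphatidylserine genes. With that scaling 6458 of all 14168 genes were called higher and 938 lower.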

How the data were processed

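Whole liver RNA of 5 PF and 7 AF mice was enriched for polyA RNA and sequenced by the authors. The authors deposited raw read counts per Ensembl gene. Per the labels' processing notes, FastQC 0.10.1, TopHat2 2.0.13 and HTSeq 0.10.0 were used with the mouse build GRCm38. A strand-marking kit (TruSeq Stranded) was used. The strand setting and the annotation of the counting are not given in the sources used here. Columns were matched to mice by group and replicate number. The labels describe each replicate as a liver sample of its own.

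Gene names, positions and exonic lengths came from GENCODE M21, which named 54165 of 54232 identifiers, and promoters from RefSeq. Genes of low count were removed by filterByExpr within groups, which kept 14168, and TMM factors were set. edgeR 4.0.16 in R 4.3.3 ran the quasi-likelihood F test without covariates, with Benjamini-Hochberg adjustment over all genes tested and a threshold of 0.05. The SE was derived from the F statistic and intervals are at 95%. Each member was also tested by an exact two-sided permutation of the difference in mean log2(CPM + 0.1) over every arrangement of the libraries. Correlations used all 5040 orders of the 7 AF livers. The paper's Cuffdiff2 comparison of FPKM values cannot be run on counts.

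The named genes were the 9 members, S100a10, S100a11, S100a6, S100a4, Pdcd6, Sri, Fpr1, Fpr2 and Pla2g4a, in each other list at most 3 genes with the largest absolute log2 fold change among called genes whose mean log2 CPM was 0 or more, and the 5 genes most like the member with the highest CPM per kb in AF livers. S100a13, Pdcd6ip, Plg, Serpinf2, Tmem30a, Spp1, Mindy1 and 6330562C20Rik were outside that rule and were named after their values had been seen. The members and lists were chosen with earlier results of these data known.

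Alternatives were DESeq2 1.42.0, limma-voom (limma 3.58.1) with and without sample quality weights, RLE and upper-quartile factors, library totals, 2 other filters, reads thinned to the depth of the smallest library, a correction for GC content and length (known for 99.9% of the genes), the replicate number as a block (replicates 1 to 5 of both groups, without AF replicates 6 and 7) and each library left out in turn. The 31 pairs of libraries within groups differed by at least 20.2 times the counting noise. For a gene with no reads in a library the limit is 3 counts at 95%, which covers counting error only.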

Additional observations from a re-analysis of the deposited data

Results flagged for a closer look

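Chance flags about 1 in 20 groups of samples, which is 1.8 of the 36 groups of values looked at for the 18 genes named first in the rule, and 2 were found. Anxa3 in PF replicate 2, at 6.68 CPM, lay further below the other PF livers, at 9.24 to 9.999 CPM, than Dixon's test allows for 5 samples. Without this library the log2 fold change of Anxa3 was 1.305 with an edgeR adjusted p of 0.00607. Sri in AF replicate 3, at 43.2 CPM, lay above the other AF livers by more than Dixon's test allows for 7 samples.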

How the results depend on the processing

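For the 9 members and 9 partner genes under 23 alternatives, 381 of 414 log2 fold changes kept their direction and their side of the threshold, 7 fell short of it, 18 passed it newly and 8 changed sign. The number of members past the threshold was 8 on library totals and 4 to 5 with each library left out. Pairs of members past the threshold within AF livers numbered 0 with log2(CPM + 1). They numbered 0 to 8 with each AF liver left out, where the exact test has fewer orders. The log2 fold change of Anxa7 was -0.0019 with the replicate block. That of Anxa11 was 0.062 with quality weights, 0.024 with upper-quartile factors, 0.33 on library totals, where it was called higher, -0.26 with the GC and length offset, where it was called lower, and with single libraries left out -0.099 to 0.048, above 0 without PF replicate 1 (0.048) or 2 (0.0088). That of Sri was 0.31 on library totals and 0.12 with the GC and length offset. The cause of these changes was not tested.

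The PF mice were pair-fed, and the methods do not say whether the replicate numbers mark pairs. The correlations of the deviations of same-numbered PF and AF libraries ran from -0.0749 to 0.117. Of 5 PF libraries, 2 correlated best with their own number, and 5 numbers are too few to settle whether pairs exist. With the replicate block over the 5 numbers both groups share, 6256 genes and 6 members were called in place of 5635 and 5, and 32 list genes in place of 31. Among the members, Anxa1 and Anxa4 were gained and Anxa6 was lost. This fit also left out AF replicates 6 and 7, so that the block and the smaller set of livers cannot be told apart. Anxa9 rests on few reads.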
